A study of Danio rerio with 3 samples.

Results

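Histone genes were followed in sorted cells from the thymus, kidney marrow and scales of zebrafish. The set held every feature of the deposited tables whose symbol began with hist or HIST and a digit, or with h2af, h1f or h3f3, which gave 42 of 31903 features. By name, 28 of them (hist and HIST) are replication-dependent genes and 14 (h2af, h1f and h3f3) are variant genes. The replication-dependent genes comprised 20 named hist1h2a for H2A, HIST2H3C and hist2h3c for H3, 4 HIST1H4 genes for H4, hist1h2ba for H2B, and hist2h2l. The variant genes comprised h2afva and h2afvb for H2A.Z, h2afx and h2afx1 for H2A.X, h2afy and h2afy2 for macroH2A, 5 h3f3 genes for H3.3, h1fx and h1f0 for linker H1, and h2af1al.

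Histones are the proteins around which DNA is wound in nucleosomes, and linker histone H1 binds where the DNA enters and leaves. Replication-dependent histone genes are transcribed in S phase to package newly copied DNA, and in animals most of their mRNAs end in a stem-loop in place of a poly(A) tail. Variant histone genes are generally transcribed outside S phase as well and give polyadenylated mRNAs. H2A.X is phosphorylated around DNA breaks, including those that RAG1 and RAG2 make when lymphocytes rearrange their antigen receptor genes. Droplet libraries of this kind prime cDNA on poly(A), so they count stem-loop mRNAs only where a copy carries A-rich sequence, and a level is that of the captured molecules.

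There was 1 library per tissue, all from lck:GFP fish, in which the promoter of lck, a kinase of T cells and some NK cells, drives a fluorescent protein. Cells were sorted by fluorescence from the lymphoid and precursor scatter gates. The number, age and sex of the fish and the fluorescence gate of each library are not given in the sources used here. The thymus gave 4574 cells with 12405147 unique molecular identifiers (UMIs, counted molecules), the marrow 983 cells with 4987653, and the scale 375 cells with 1279044. Median UMIs per cell were 1370 in the thymus against 4044 in the marrow and 3178 in the scale. No barcode was shared between any pair of libraries.

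Markers matched the tissues in part. Levels are UMIs per 1000000 UMIs of the group (CPM). In the marrow, the neutrophil or granulocyte list summed to 4978 CPM, the T cell list to 1639 and the NK list to 1347. Marrow levels are therefore not those of lymphocytes alone. The recombinase gene rag1 had a level of 3261 CPM in the thymus and 1.40 in the marrow, and it had 0 UMIs in the scale. The 7 erythroid features summed to 11522 CPM in the marrow, 325 in the thymus and 1.56 in the scale, and the 6 keratinocyte markers summed to 2649 CPM in the scale, 63.4 in the thymus and 1.60 in the marrow. With 1 library per tissue, tissue, fish, gate and library cannot be told apart, no test was possible, and every interval below is a 95% interval for counting error. The marrow table was also written by another software version than the other tables.

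All 42 genes were detected in at least 1 library. Both classes were higher in the thymus than in the other libraries. The 28 replication-dependent genes summed to 1996 CPM in the thymus against 482 in the marrow and 80.5 in the scale. The thymus level was 4.15-fold the marrow level (3.97 to 4.32) and 24.8-fold the scale level (20.4 to 30.4). The 14 variant genes summed to 14391 CPM in the thymus against 3120 in the marrow and 2420 in the scale, which put the thymus 4.61-fold above the marrow (4.54 to 4.69) and 5.95-fold above the scale (5.74 to 6.16). The marrow and scale differed less for the variant genes (scale 0.776 of the marrow) than for the replication-dependent genes (0.167 of the marrow). Of the genes tested between them, 5 of 6 replication-dependent and 3 of 13 variant genes were at least 2-fold lower in the scale. The share of all features was 8%. None was at least 2-fold higher, against 9.51%. The 5 replication-dependent genes had 0 to 3 UMIs in the scale, so they reached the UMI minimum for testing only through the marrow. Their count was thus set by that minimum and cannot be read against the share of all features. Replication-dependent genes under the minimum were not tested. Histone members made up 1.64% of all thymus UMIs, 0.360% of marrow UMIs and 0.250% of scale UMIs.

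Counted gene by gene, 27 of 28 replication-dependent genes and 11 of the 13 variant genes with at least 50 UMIs were at least 2-fold higher in the thymus than in the marrow, where 26% of all 10156 features tested were. At least 2-fold lower was 1 replication-dependent gene, hist2h2l, against 10.7% of all features. The median ratio of thymus to marrow was 4.03 for the replication-dependent genes and 4.74 for the variant genes, against 1.39 over all features. Replication-dependent genes with at least 50 marrow UMIs were HIST2H3C, hist2h3c, hist2h2l and the hist1h2a copies ENSDARG00000112593, ENSDARG00000099123 and ENSDARG00000105444. The others had 2 to 46 UMIs there and were tested only through the thymus. Their count cannot be read against the share of all features, nor the replication-dependent median against that of all features. Against the scale, 27 of 28 replication-dependent and 10 of 13 variant genes were at least 2-fold higher in the thymus, where 27.7% of all features were. There too 1 histone gene was at least 2-fold lower, hist2h2l, against 12.9% of all features. All replication-dependent genes but hist2h2l had 0 to 3 UMIs in the scale, so they were tested only through the thymus. The variant genes h2afx and h1f0, with 15 and 30 UMIs in the scale, were too. The replication-dependent count against the scale thus cannot be read against the share of all features.

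**Figure D1:**
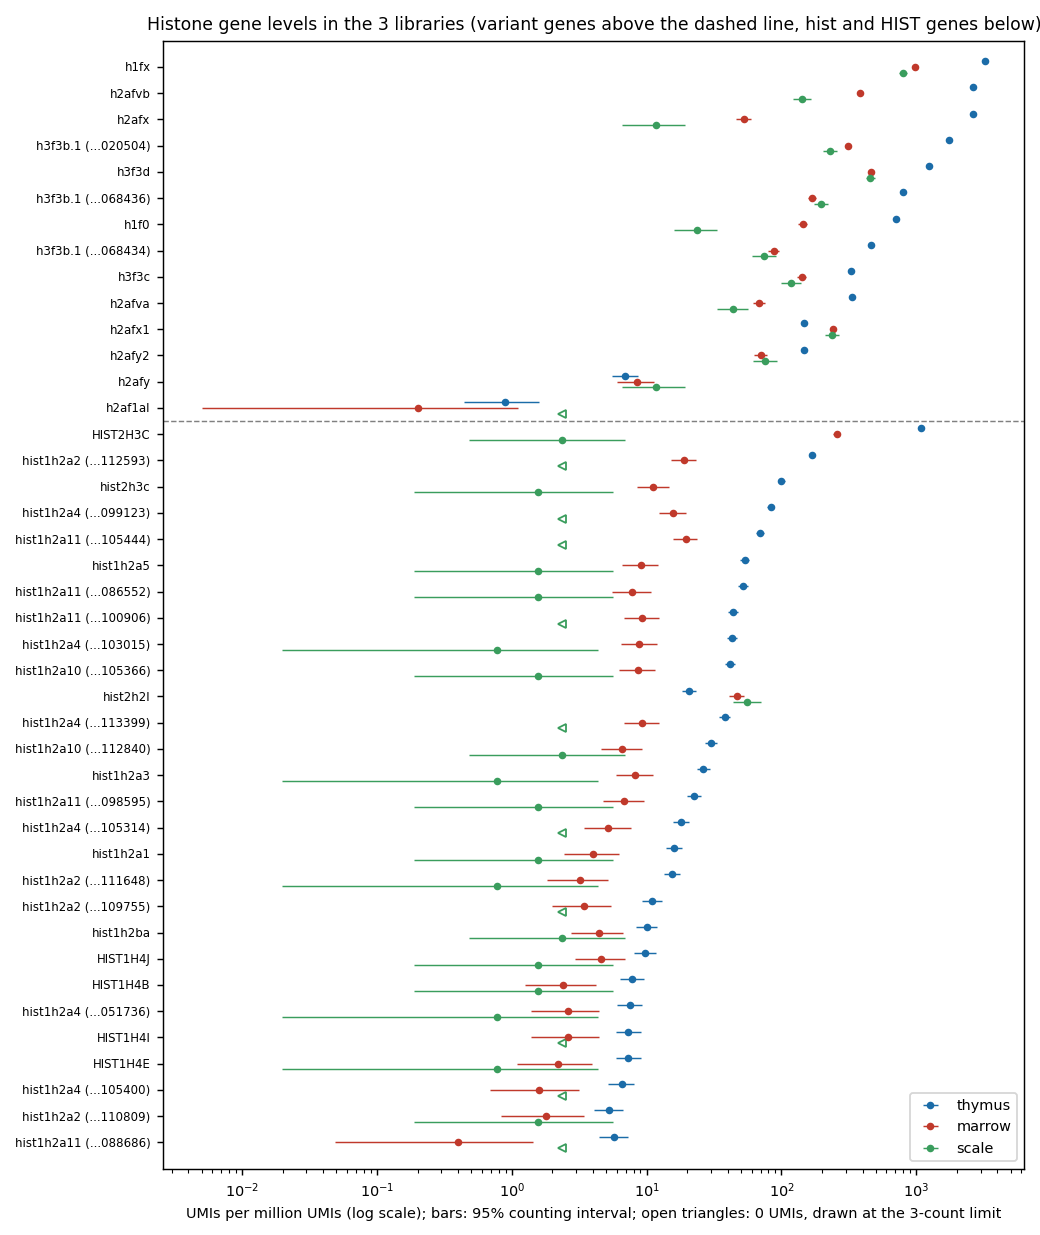
Level of each of the 42 histone genes in the 3 libraries, in CPM on a log axis, with 95% counting intervals as bars and open triangles at the 3-count limit for 0 UMIs. Thymus points lie to the right of marrow and scale points for nearly all genes, the exceptions being h2afx1, h2afy and hist2h2l, and h2af1al, whose scale symbol is a limit.

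Among the H3 genes, HIST2H3C held most of the replication-dependent signal. This gene for replication-dependent H3 stood at 1077 CPM in the thymus against 257 in the marrow and 2.35 in the scale, where it had 3 UMIs. It took 54.0% of replication-dependent UMIs in the thymus and 53.4% in the marrow, but 2.91% in the scale. The thymus to scale ratio was 459 with an interval from 157 upwards, and without HIST2H3C the summed replication-dependent ratio of thymus to scale dropped from 24.8 to 11.8. The smaller H3 gene hist2h3c stood at 99.6 CPM in the thymus against 11.2 in the marrow and 1.56 in the scale.

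The 20 hist1h2a genes for H2A ran in parallel. Their sum was 757 CPM in the thymus against 151 in the marrow and 14.9 in the scale. The ratios of thymus to marrow of the 20 copies ran from 2.88 to 14.3. The highest came from 71 UMIs in the thymus against 2 in the marrow (3.81 to 120). The leading copy, hist1h2a2 (ENSDARG00000112593), stood at 168 CPM in the thymus and 18.8 in the marrow, with 0 UMIs in the scale, which makes the thymus at least 71.6-fold higher than the scale. The next copies, hist1h2a4 (ENSDARG00000099123) and hist1h2a11 (ENSDARG00000105444), stood at 83.4 and 69.1 CPM in the thymus against 15.6 and 19.4 in the marrow. They too had 0 UMIs in the scale.

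Further hist1h2a copies were lower in the thymus and marrow. The gene hist1h2a5 stood at 53.5 CPM in the thymus against 9.02 in the marrow and 1.56 in the scale. The copies hist1h2a11 (ENSDARG00000086552 and ENSDARG00000100906), hist1h2a4 (ENSDARG00000103015 and ENSDARG00000113399) and hist1h2a10 (ENSDARG00000105366) lay between 37.9 and 51.9 CPM in the thymus and between 7.82 and 9.22 in the marrow. In all, 10 of the 28 replication-dependent genes had 0 UMIs in the scale, where 3 UMIs correspond to 2.35 CPM. Of the 42 members, 20 share 5 symbols, and histone gene copies can be near-identical in sequence, which was not compared here. Counting may therefore have split or dropped reads, and the level of any single copy is uncertain. Of the members, 41 had an entry in a table of current symbols, in which hist1h2a11 (ENSDARG00000086552) is now h2ax2, an H2A.X name. H2B and H4 genes were scarce: hist1h2ba stood at 10.0 CPM in the thymus, and the 4 HIST1H4 genes summed to 32.2 CPM there.

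The gene hist2h2l had the opposite order. Its thymus level was 20.7 CPM (18.3 to 23.4). The marrow had 46.5 CPM (40.7 to 52.9), and the scale had 55.5 (43.4 to 70.0). The marrow and scale intervals overlap, and the thymus lies below both. In the scale it supplied 71 of the 103 replication-dependent UMIs. Without it, the replication-dependent sum was 79.0-fold higher in the thymus than in the scale and 4.54-fold higher than in the marrow.

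Among the variants, h2afx for H2A.X had the highest ratios of thymus to marrow and of thymus to scale. It stood at 2612 CPM in the thymus against 52.5 in the marrow and 11.7 in the scale, so the thymus was 49.7-fold above the marrow (44.0 to 56.4) and 223-fold above the scale (135 to 398). Its relative h2afx1 went the other way, with 146 CPM in the thymus against 241 in the marrow and 238 in the scale, a thymus to marrow ratio of 0.607 (0.564 to 0.653). In the RefSeq gene table (assembly GRCz12tu) h2afx1 and hist2h2l are neighbours, and these were the members with clearly lower levels in the thymus, since the h2afy intervals overlapped. Without h2afx, the summed variant ratio was 3.84 for thymus to marrow and 4.89 for thymus to scale.

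The H2A.Z genes, whose product replaces H2A near promoters, were higher in the thymus as well. The main gene h2afvb stood at 2644 CPM in the thymus against 384 in the marrow and 142 in the scale, and h2afva at 332, 68.4 and 43.8. Over all cells, both were lower in the scale than in the marrow. The ratios were 0.371 (0.317 to 0.432) for h2afvb and 0.640 (0.474 to 0.852) for h2afva. Among cells with no UMI of mki67 and top2a, genes transcribed in cycling cells, neither was clearly lower. The ratios of scale to marrow there were 0.994 (0.821 to 1.20) for h2afvb and 1.17 (0.826 to 1.64) for h2afva.

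The 5 genes for H3.3, the form of H3 deposited outside replication, were all at least 2-fold higher in the thymus than in the marrow, with ratios from 2.33 to 5.63. The gene h3f3b.1 (ENSDARG00000020504, now h3f3a) stood at 1752 CPM in the thymus against 311 in the marrow and 228 in the scale. The gene h3f3d stood at 1232, 461 and 457 CPM, so its marrow and scale levels could not be separated (ratio 0.992, 0.904 to 1.09). The other H3.3 genes were h3f3b.1 (ENSDARG00000068436) at 799.8 CPM in the thymus, h3f3b.1 (ENSDARG00000068434) at 463 and h3f3c at 328.

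Linker histone gene h1fx stood at 3215 CPM in the thymus against 981 in the marrow and 798 in the scale, the highest count of any histone gene in each library, without scaling for length. The gene h1f0, for the H1.0 form known from resting and differentiated mammalian cells, stood at 711 CPM in the thymus against 144 in the marrow and 23.5 in the scale. Its scale level was 0.163 of the marrow level (0.109 to 0.235). The macroH2A genes differed from each other. For h2afy2 the levels were 147 CPM in the thymus against 70.2 in the marrow and 75.8 in the scale, a thymus to marrow ratio of 2.10 (1.87 to 2.36). For h2afy they were 6.93, 8.42 and 11.7 CPM, with overlapping intervals. The gene h2af1al had 11 UMIs in the thymus against 1 in the marrow and 0 in the scale, too few for a ratio.

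Cells were then classed by their summed UMIs of mki67 and top2a, genes transcribed in cycling cells and not themselves histone genes. In the thymus, 3302 cells had 0 such UMIs, 555 had 1 to 2 and 717 had 3 or more. The classes also differ in depth, with median totals of 1211, 1299 and 6585 UMIs, and the part of depth in the classing was not tested. The lists of cell cycle genes moved with the classes: the 20 S phase features summed to 1098, 2874 and 4620 CPM, and the 20 mitosis features to 201, 400.2 and 5156 CPM.

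The replication-dependent genes were concentrated in the upper class. Their sum was 155 CPM (145 to 166) in cells with 0 mki67 and top2a UMIs, 343 CPM (311 to 378) with 1 to 2, and 4311 CPM (4256 to 4366) with 3 or more. The upper class was 27.8-fold above the class with 0 (26.0 to 29.7), and the middle class 2.21-fold (1.97 to 2.49). The upper class, 15.7% of the cells and 43.9% of all thymus UMIs, held 94.7% of replication-dependent UMIs. Of the 717 cells in the upper class, 93 had no replication-dependent UMI. Marker lists moved with the classes: from the class with 0 to the upper class, the 10 T cell markers summed to 8168 and 3295 CPM, the 6 immature T cell markers to 6649 and 2877, and the 5 macrophage or dendritic markers to 789 and 339.5. The 7 erythroid features summed to 524 and 20.4 CPM and the 6 keratinocyte markers to 108 and 23.9, while the 9 NK features summed to 63.7 and 96.5. Most of the macrophage or dendritic sum was cd74a, at 754 and 338 CPM. Most of the NK sum was gzmk, at 54.9 and 92.5 CPM, and no other NK feature was higher in the upper class. The part of these lists in the class difference was not tested.

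The variant genes had high levels in every class. Their sum was 11338 CPM with 0 mki67 and top2a UMIs, 11144 with 1 to 2 and 18343 with 3 or more, so that the upper class was 1.62-fold above the class with 0 (1.60 to 1.63). The upper class held 55.9% of variant UMIs, against 43.9% of all UMIs. Without h2afx the variant ratio was 2.05. Replication-dependent UMIs were 1.35% of all histone UMIs in the class with 0 and 19.0% in the upper class.

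By gene, 27 of 28 replication-dependent genes were at least 2-fold higher in the upper class than in the class with 0, and so were 4 of the 13 variant genes tested, where 10.1% of all 8797 features were. No histone gene was at least 2-fold lower, against 16.9% of all features. Among the replication-dependent genes, only HIST2H3C (405 UMIs), hist2h2l (91) and hist1h2a2 (ENSDARG00000112593, 62) reached the UMI minimum in the class with 0. The others had 1 to 37 UMIs there, so they were tested only through the upper class. Their count therefore cannot be read against the share of all features. The median ratio was 25.7 for the replication-dependent genes, 1.34 for the variant genes and 0.86 over all features. The replication-dependent median has the same limit as the count. The replication-dependent gene outside the 27 was hist2h2l, at 26.3 CPM in the upper class and 15.9 in the class with 0 (ratio 1.66, 1.26 to 2.18). The 4 variant genes past 2-fold were h3f3b.1 (ENSDARG00000020504), h2afvb, h2afva and h2afx1.

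**Figure D2:**
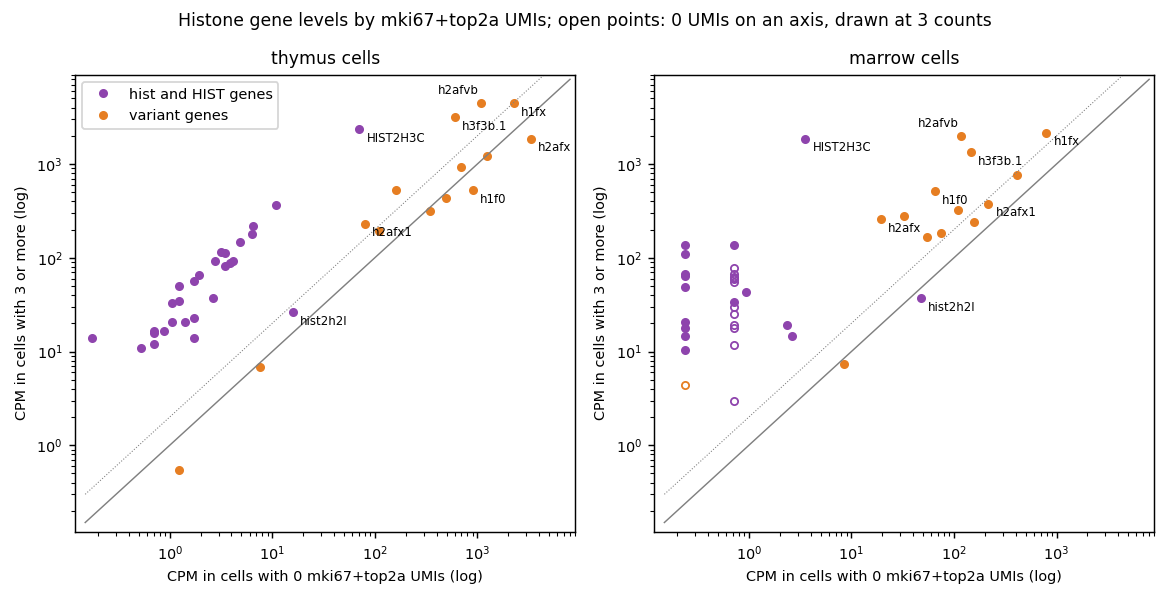
Level of each histone gene in cells with 0 (horizontal axis) and with 3 or more (vertical axis) mki67 and top2a UMIs, in CPM on log axes, for thymus and marrow, with lines for equal and 2-fold levels and open points for 0 UMIs, drawn at 3 counts. In the thymus, 27 of the 28 replication-dependent genes lie above the 2-fold line. The variant genes lie on both sides of the line for equal levels, and 4 of the 13 tested lie above the 2-fold line.

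The genes HIST2H3C, hist2h3c and the leading H2A copy had closely similar ratios. HIST2H3C stood at 2355 CPM in the upper class and 70.6 CPM in the class with 0, a ratio of 33.3 (30.2 to 36.9), and hist2h3c gave 33.6 (24.2 to 47.9). The leading H2A copy, hist1h2a2 (ENSDARG00000112593), stood at 365 and 10.8 CPM, a ratio of 33.7 (26.2 to 44.2). All 20 hist1h2a genes lay between 13.2 and 80.1.

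The highest ratio among members with at least 50 thymus UMIs belonged to hist1h2a4 (ENSDARG00000105400), with 76 UMIs in the upper class against 1 in the class with 0, and its interval ran from 13.9 to 3205. The next were hist1h2a11 (ENSDARG00000098595) at 40.5 (19.4 to 102.3) and hist1h2a5 at 36.8 (23.1 to 62.4). These intervals all contain the ratio of HIST2H3C, so the copies could not be ranked. The H4 genes gave 8.01 to 22.7 and the H2B gene hist1h2ba 14.8 (7.24 to 35.0).

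The variant genes lay on both sides of equality, also within one family. The H3.3 gene h3f3b.1 (ENSDARG00000020504) stood at 3146 CPM in the upper class and 599 in the class with 0 (ratio 5.25, 5.06 to 5.45). The other 4 H3.3 genes lay between 0.879 and 1.34, with h3f3d at 1220 and 1255 CPM (ratio 0.972, 0.940 to 1.01). Only this 1 of the 5 genes for H3.3 passed 2-fold.

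The H2A.Z gene h2afvb stood at 4488 CPM in the upper class and 1083 in the class with 0 (ratio 4.14, 4.03 to 4.26), and h2afva gave 3.27 (3.03 to 3.52). The H2A.X gene h2afx1 gave 2.88 (2.59 to 3.21). Below 2-fold were h1fx at 1.95 (1.91 to 1.99) and h2afy2 at 1.77 (1.60 to 1.96).

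The lowest ratios were those of h2afx, h1f0 and h3f3b.1 (ENSDARG00000068434). H2A.X gene h2afx stood at 1867 CPM in the upper class and 3320 in the class with 0 (ratio 0.562, 0.549 to 0.576). Linker gene h1f0 stood at 528 and 899.5 CPM (ratio 0.588, 0.561 to 0.615). The third, h3f3b.1 (ENSDARG00000068434), gave 0.879 (0.832 to 0.929).

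Family by family, the captured H2A and H3 UMIs shifted between the classes. Replication-dependent H2A made up 1.17% of H2A UMIs in the class with 0 and 18.2% in the upper class, and H2A.Z made up 25.8% and 56.1%. H2A.X had the reverse order, with 70.6% in the class with 0 and 23.5% in the upper class. Replication-dependent H3 made up 2.22% of H3 UMIs in the class with 0 and 29.8% in the upper class. These are shares of captured molecules, and the capture of tail-less mRNAs relative to others was not measured.

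**Figure D3:**
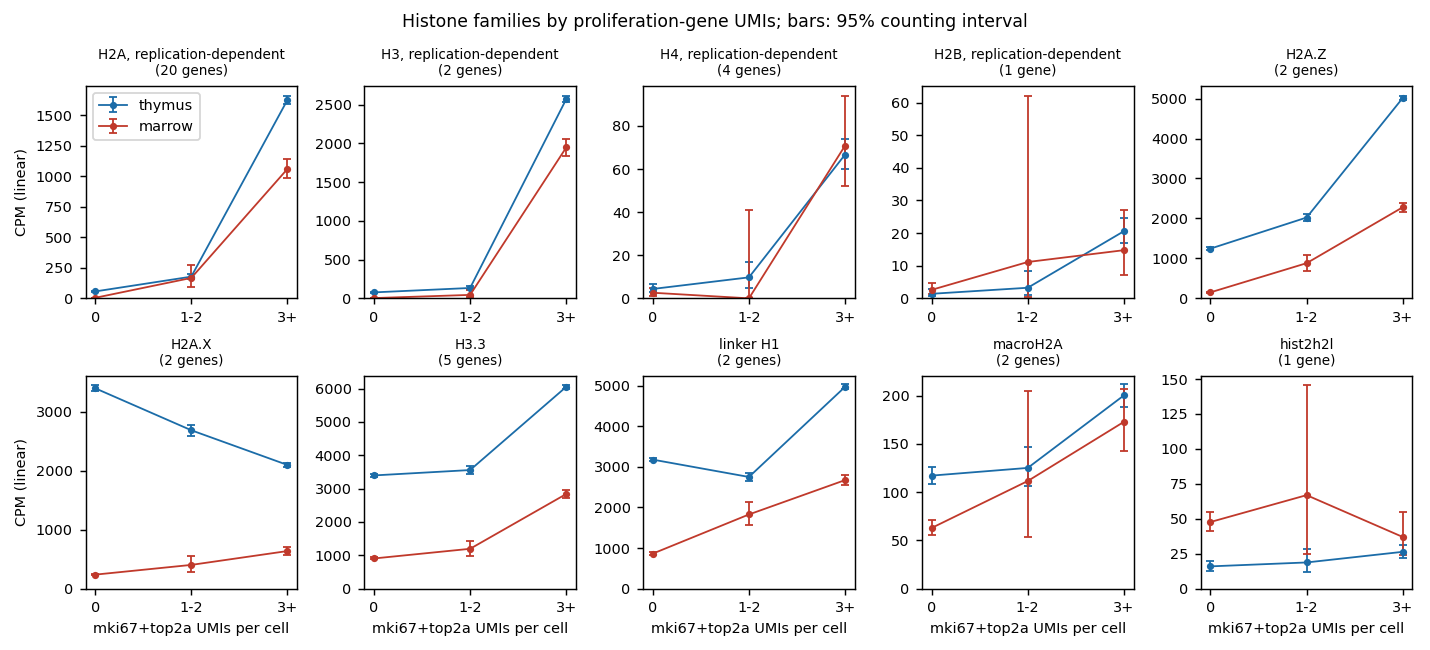
Summed level of each histone family in thymus and marrow cells with 0, 1 to 2 and 3 or more mki67 and top2a UMIs, in CPM from 0, with 95% counting intervals. Replication-dependent H2A, H3 and H4 are near 0 in the class with 0 in both libraries, while H2A.X is highest in the thymus class with 0.

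For h2afx and h1f0, the order of the classes differed between bands of depth. Among thymus cells with 0 mki67 and top2a UMIs, h2afx was lower in deeper cells, from 4816 CPM in cells of 500 to under 1000 UMIs to 1230 CPM in cells of 8000 or more. Within bands of UMIs per cell, in which the classes can still differ in depth, the ratio of the upper class to the class with 0 for h2afx was 0.423 from 500 UMIs, 0.521 from 1000, 1.31 from 2000, 1.39 from 4000 and 1.12 from 8000 upwards. For h1f0 the same bands gave 0.699, 0.931, 1.27, 1.73 and 1.83. In each band from 2000 UMIs both genes were higher in the upper class, and over all cells both were lower. The part of depth in this change of order was not tested.

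The replication-dependent ratio was larger in the bands from 2000 UMIs upwards than in the shallower ones. For the sum its interval was 5.42 to 8.96 from 500 UMIs and 11.3 to 17.3 from 1000. These bands held 49 and 36 upper-class cells. The ratio of the sum was 50.4 from 2000, 85.7 from 4000 and 75.9 from 8000. For the hist1h2a genes the ratio was 120.1 (75.9 to 203) from 4000 UMIs and 63.9 (33.6 to 140) from 8000. HIST2H3C gave 6.52 in cells of 500 to under 1000 UMIs, 12.6 from 1000 and 67.9 from 2000. It gave 133 (89.7 to 205) from 4000 and 165 (70.6 to 508) from 8000. In these deepest bands the class with 0 held 25 and 5 HIST2H3C UMIs, and the intervals overlap. In the class with 0, the replication-dependent sum was 345 CPM in the shallowest band, 171, 111 and 76.9 in the next, and 43.7 in the deepest. The part of depth in these values was not tested.

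In cells of 2000 to 4000 UMIs, both ends included, 102 upper-class and 600 class-0 cells could be compared, with medians of 3250 and 2615 UMIs, and 8 of 8 replication-dependent and 6 of 12 variant genes tested were at least 2-fold higher in the upper class, against 9.51% of all 3774 features. None was at least 2-fold lower, against 12.8%. Of the 8 replication-dependent genes, only HIST2H3C, with 68 UMIs in the class with 0, reached the UMI minimum for testing without the upper class. The others had 3 to 13 UMIs in the class with 0, so that minimum selected genes high in the upper class. Their count therefore cannot be read against the share of all features, and replication-dependent genes under the minimum were not tested. The replication-dependent sum stood at 5606 and 111 CPM, a ratio of 50.6 (43.4 to 59.2), and the variant sum at 27035 and 10462 CPM, a ratio of 2.58. Within this band h3f3b.1 (ENSDARG00000020504) gave 8.49 (7.78 to 9.26), h2afvb 5.96 (5.58 to 6.37), h1fx 3.11 (2.96 to 3.27) and h2afy2 2.39 (1.80 to 3.14). The ratio of h3f3d was near equality at 0.959 (0.857 to 1.07). The genes h3f3c and h3f3b.1 (ENSDARG00000068434), under 1 over all cells, had ratios above 1 here, with intervals of 1.05 to 1.53 and 1.28 to 1.75.

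**Figure D4:**
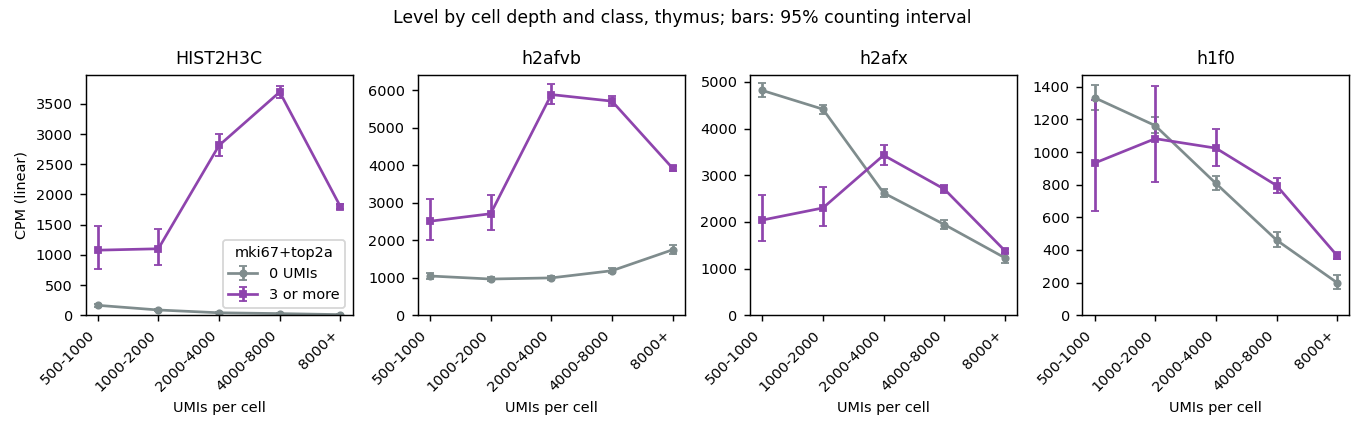
Levels of HIST2H3C, h2afvb, h2afx and h1f0 in thymus cells with 0 and with 3 or more mki67 and top2a UMIs, in 5 bands of UMIs per cell, in CPM, with 95% counting intervals. The classes are apart for HIST2H3C and h2afvb in every band, while the order of the classes for h2afx and h1f0 changes at 2000 UMIs per cell.

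Thinning each cell to 1000 UMIs gave the same order by cells. A replication-dependent UMI was then found in 12.9% of 2181 thymus cells with 0 mki67 and top2a UMIs and in 74.0% of 668 cells of the upper class, with 1121 and 49 shallower cells left out and median depths of 1634 and 6964 UMIs before thinning. Before thinning, 2560 of the 3302 cells with 0 and 93 of the 717 upper-class cells had no replication-dependent UMI. After thinning, marrow cells with 0, whose median depth was 4010.5, had a replication-dependent UMI in 47 of 940 cells (3.70 to 6.59%), and scale cells with 0 in 5.37% of 335 (3.22 to 8.36). For h2afx, the share of cells with a UMI after thinning was 79.4% of thymus cells with 0, 1.17% of marrow cells with 0 and 0.896% of scale cells with 0.

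The marrow also had an upper class, of 26 cells. Replication-dependent genes summed to 3130 CPM there and to 60.7 CPM in the 940 cells with 0, a ratio of 51.6 (45.3 to 59.0), and 88.3% of the marrow's replication-dependent UMIs came from these 2.64% of its cells. A single cell held 12.7% of them. Marker lists moved with the class: the erythroid list summed to 25794 CPM in the upper class and 9269 in the class with 0, the neutrophil list to 11710 and 4003, the T cell list to 738 and 1788, and the NK list to 543 and 1481. In marrow barcodes under 100 UMIs, which hold free RNA, the erythroid list summed to 25077 CPM and the neutrophil list to 1066. The part of cell types and of free RNA in the marrow result was not tested.

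In the marrow, 5 of the 6 replication-dependent genes tested and 9 of 12 variant genes were at least 2-fold higher in the upper class, against 27% of all 5869 features. None was at least 2-fold lower, against 18.3%. The 5 replication-dependent genes had 0 to 15 UMIs in the class with 0, so they reached the UMI minimum for testing only through the upper class. Their count was thus set by that minimum and cannot be read against the share of all features. Replication-dependent genes under the minimum were not tested. HIST2H3C stood at 1869 CPM in the upper class and 3.55 in the class with 0 (ratio 526, 318 to 943), and h2afvb at 2004 and 117 CPM (ratio 17.1, 15.4 to 19.0). The gene hist2h2l did not follow, at 36.9 and 47.6 CPM (ratio 0.775, 0.490 to 1.18). It supplied 47.6 of the 60.7 replication-dependent CPM in marrow cells with 0.

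For 4 variants tested in both libraries, the ratio of the upper class to the class with 0 was under 1 in the thymus and over 1 in the marrow: h2afx, h1f0, h3f3b.1 (ENSDARG00000068434) and h3f3c. The gene h3f3d had this order too, but the interval of its thymus ratio of 0.972 included 1. H2A.X gene h2afx gave 13.4 in the marrow (10.2 to 17.6), from 19.4 to 259.9 CPM, and h1f0 gave 7.86 (6.69 to 9.24), from 65.4 to 514 CPM. The difference between the libraries was not tested.

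The marrow file also lists barcodes under 100 UMIs, which hold free RNA. In these, the replication-dependent genes summed to 269.7 CPM and the variant genes to 2422 CPM. The class with 0 in the marrow stood at 60.7 and 2213 CPM, so neither sum exceeded the free RNA level there, and both sums in the upper class did. No such barcodes are listed for the thymus and scale, so free RNA could not be measured in them.

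The upper classes of both libraries were closer to each other than the libraries as wholes. The thymus upper class was 1.38-fold above the marrow upper class for replication-dependent genes and 2.13-fold for variant genes. Of the genes tested, 4 of 28 replication-dependent and 6 of 12 variant genes were at least 2-fold higher in the thymus. The share of all features was 15.7%. No histone gene tested was at least 2-fold lower, against 9.02%. Among the replication-dependent genes, only HIST2H3C, hist2h3c and the hist1h2a copies ENSDARG00000112593, ENSDARG00000099123 and ENSDARG00000105444 reached the UMI minimum in the marrow upper class. The others had 2 to 46 UMIs there, so they were tested only through the thymus upper class. The replication-dependent counts therefore cannot be read against the shares of all features.

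Cells with 0 mki67 and top2a UMIs differed between thymus and marrow as well. The variant sum was 5.12-fold higher in the thymus (5.01 to 5.24), and 11 of 13 variant genes tested were at least 2-fold higher, against 31% of all 8533 features. The remaining genes were h2afx1, at 80.1 CPM in the thymus and 217 in the marrow (ratio 0.370), where 9.04% of all features were at least 2-fold lower, and h2afy (ratio 0.900, 0.566 to 1.44). The replication-dependent sum was 2.56-fold higher (2.22 to 2.95), a value that rests on single genes: it was 1.48 without HIST2H3C and 10.7 without hist2h2l. In scale against marrow cells with 0, the replication-dependent ratio was 1.04 (0.798 to 1.34) and the variant ratio 1.05. The first value is mostly that of hist2h2l, with 71 of 79 such UMIs in the scale and 201 of 256 in the marrow. The other replication-dependent genes had too few UMIs there to compare.

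The h2afx gap was widest in these cells, at 3320 CPM in the thymus and 19.4 in the marrow (ratio 171, 138 to 215). Thymus cells with 0 were split by rag1, with a rag1 UMI in 2757 cells and none in 545. By CPM, h2afx was 3.04-fold higher with a rag1 UMI (2.87 to 3.23), where 7.99% of all features tested were at least 2-fold higher. After thinning to 1000 UMIs per cell, it averaged 4.54 UMIs per cell with rag1 and 1.32 without, and h1f0 averaged 1.16 and 0.597.

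Other genes had the reverse order in the rag1 split. The gene h2afx1 gave a ratio of 0.380 (0.313 to 0.464) and hist2h2l 0.300 (0.194 to 0.469), where 4.75% of all features were at least 2-fold lower. The genes h3f3d and h2afva lay close to equality, the second at 0.913 (0.772 to 1.08). The cells without a rag1 UMI held more of other markers. In them, the macrophage or dendritic list summed to 1976 CPM against 545 with rag1, and the erythroid list to 1747 against 272. Over all thymus cells with 0, cd74a had 754 of the 789 CPM of the macrophage or dendritic list. The part of cells with such markers was not tested. For h2afx, the thymus cells with no rag1 UMI stood 63.5-fold above the marrow cells with 0. The immature T cell list summed to 954 CPM in the former and 134 in the latter. The part of such cells in this gap was not tested.

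Cells of the thymus upper class were split by whether the S phase or the mitosis list had more UMIs, which gave 289 and 411 cells, with 17 equal. Replication-dependent genes were not concentrated in either group, at 3990 CPM in the S group and 4593 CPM in the mitosis group (ratio 0.869). None of the 28 was at least 2-fold higher in either direction, against 5.91% of all features higher in the S group and 4.17% lower. The variant sum was 0.727 of the mitosis group's level in the S group, and 2 of 12 variant genes, h1fx (0.453) and h1f0 (0.478), were at least 2-fold lower in the S group. H2A.X gene h2afx gave 0.539. The groups also differed in depth, with medians of 7938 UMIs per cell in the S group and 5891 in the mitosis group, and the part of depth was not tested.

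Ordered by the share of the S list among the UMIs of both lists, 653 cells with at least 10 such UMIs gave 5 bins. The median depths of the bins were 5731, 6580.5, 8275, 7503.5 and 8283.5 UMIs per cell, and the part of depth was not tested. HIST2H3C stood at 2616, 2812, 2522 and 3070 CPM in the bins from 0 to 80% and at 1142 CPM from 80 to 100%, and the hist1h2a sum peaked at 2104 CPM from 60 to 80%. The linker gene h1fx was lower in each bin than in the one before, from 6728 CPM in the lowest to 1608 in the highest, and h2afx from 2811 to 1026 CPM. The gene slbp, for the stem-loop binding protein that processes replication-dependent histone mRNA, went the other way, from 28.3 to 426 CPM, but it is itself on the S list.

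**Figure D5:**
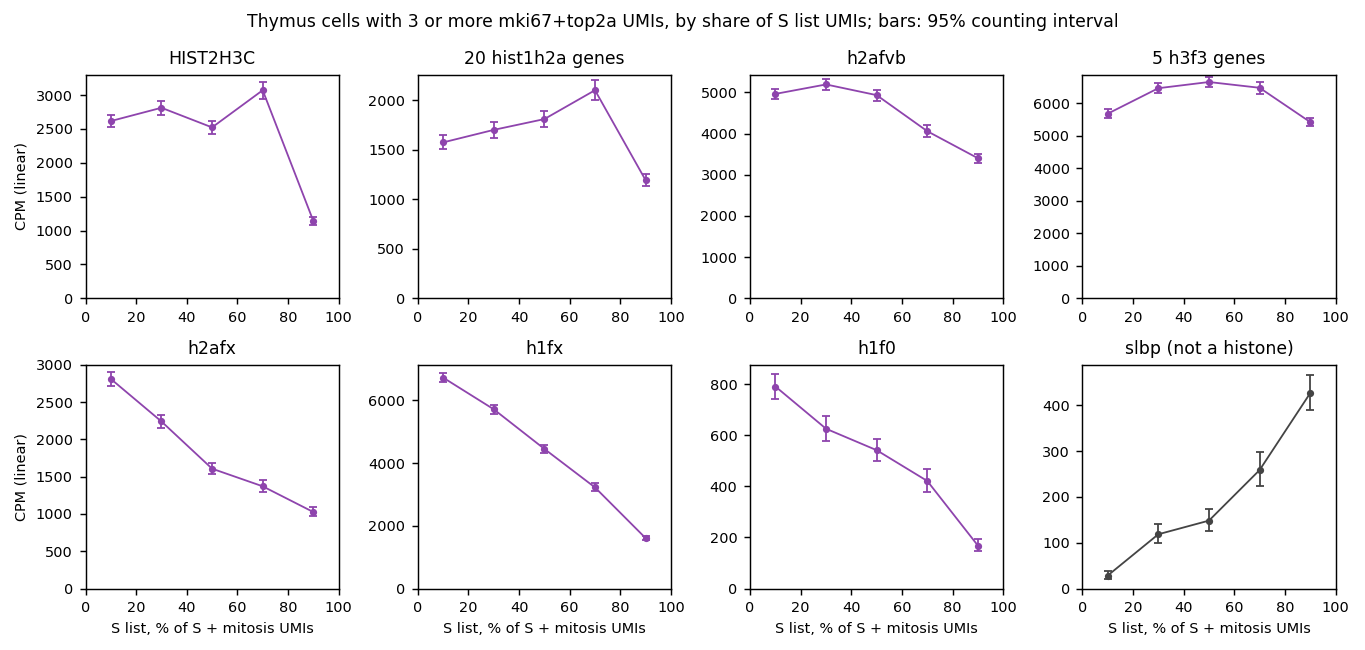
Levels of histone genes and slbp in 653 thymus cells with 3 or more mki67 and top2a UMIs, in 5 bins by the share of S phase list UMIs among the UMIs of the S phase and mitosis lists, in CPM with 95% counting intervals. The levels of h1fx, h2afx and h1f0 are lower toward the S phase end. HIST2H3C has no steady order, the hist1h2a sum is highest from 60 to 80%, and both are lowest in the last bin. Median depth also differs between the bins.

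Of the genes that supply or process histones, 28 of the 32 matched members were tested, and 10 were at least 2-fold higher in the thymus upper class than in the class with 0, with none at least 2-fold lower, against 10.1% and 16.9% of all features. The median ratio was 1.48, against 25.7 for the replication-dependent genes and 0.86 over all features. Most replication-dependent genes were tested only through the upper class, so their median cannot be read against the other medians. The assembly factor genes chaf1a and asf1ba gave ratios of 6.33 and 6.38, chaf1b gave 4.84, slbp 4.65 and nasp, for a histone H3 and H4 chaperone, 2.81. Between thymus and marrow, 20 of the 28 tested were at least 2-fold higher in the thymus, against 26% of all features, with a median ratio of 2.63 against 1.39 over all features.

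At least 4 further features carry a histone name in the table of current symbols but another name in the files, so the rule did not take them. These 4 were taken by name, and their number is not a full count of such features. In the thymus, h3c13a stood at 326 CPM in the upper class and 11.5 in the class with 0, hist1h4l at 136 and 5.58, hist2h3ca1 at 108 and 3.84, and H3C15 at 53.5 and 1.92. Their ratios of the upper class to the class with 0 ran from 24.4 to 28.3.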

How the data were processed

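The values that the authors deposited are whole UMI counts for each barcode, not normalized, per the file headers. Cell Ranger 6.0.0, Seurat 4.3.0 and build GRCz11 are named in the submitters' processing notes, without roles. The thymus and scale headers name version 6.0.0 and the marrow header version 4. Groups came from the tissue labels.

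A cell needed 500 UMIs and 250 genes, with no more than 10% mitochondrial UMIs. Marrow barcodes also needed 1394.89 UMIs, which is percentile 99 over the 3000 largest divided by 10. Scrublet (scanpy 1.11.5, expected rate 0.05) found no doublet among 4574 thymus and 983 marrow barcodes and 16 among 391 from the scale, so doublets are not controlled in thymus and marrow. Its 16 calls were left out.

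Levels are summed UMIs per 1000000 UMIs (CPM). Ratios have exact conditional binomial, levels exact Poisson and shares Clopper-Pearson 95% intervals, which cover counting error only. A count of 0 was set to 3 counts for a fold. Genes with at least 50 UMIs over both groups were compared against a fold of 2, with the share of all features past it as background. With 1 library per tissue there is no p-value. The ratio calculation was tested on simulated data.

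Named are the 12 replication-dependent and all 14 variant genes with the most UMIs, plus the 3 highest and 3 lowest ratios between thymus classes. Members and lists were chosen with earlier results of these data known. Of the lists, the S phase and mitosis lists matched 19 of 20 symbols each and the histone supply list 32 of 39. The B cell list summed to 903 CPM in the marrow, 1.93 in the thymus and 0.782 in the scale.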

Additional observations from a re-analysis of the deposited data

Results flagged for a closer look

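In cells with 3 or more mki67 and top2a UMIs against cells with 0, 4 variant genes were lower in the thymus and higher in the marrow. The ratio was 0.562 in the thymus and 13.4 in the marrow for h2afx, and 0.588 and 7.86 for h1f0. It was 0.879 and 2.45 for h3f3b.1 (ENSDARG00000068434), and 0.902 and 2.94 for h3f3c. The difference between the libraries was not tested, since each gives 1 value. In thymus cells of 2000 to 4000 UMIs, these 4 genes all gave ratios above 1, the lowest at 1.27. The gene h3f3d, with a ratio of 0.972 over all thymus cells and an interval that included 1, gave 0.959 in them. The marrow classes were not compared at that depth.

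Barcodes left out as cells carried histone UMIs too. The 205 marrow barcodes with 500 UMIs or more that fell short of the minimum had 185 CPM of replication-dependent and 2137 CPM of variant genes. The 123 thymus barcodes left out for the mitochondrial limit alone had 681 and 6004 CPM, under the levels of the thymus cells. The 36 such scale barcodes had 130.2 CPM, from 4 UMIs, and 1334 CPM.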

How the results depend on the processing

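None of the summed ratios changed direction under the alternatives run, while single genes did in cells of 2000 to 4000 UMIs, where h2afx went from 0.562 to 1.33 and h1f0 from 0.588 to 1.27. The genes h3f3c and h3f3b.1 (ENSDARG00000068434) also went above 1 there. Of the summed ratios and the count, 46 of 94 values stayed within the counting interval of the main value or, for the count, close to it. The main ratios are 4.15 and 24.8 (replication-dependent genes, thymus to marrow and to scale), 4.61 and 5.95 (variant genes), 27.8 and 1.62 (thymus cells with 3 or more mki67 and top2a UMIs to cells with 0, replication-dependent and variant genes), and 2.56 and 5.12 (cells with 0, thymus to marrow). With at least 1000 UMIs per cell, replication-dependent genes gave 4.43 (thymus to marrow), 35.6 (classes) and 2.00 (cells with 0), and variant genes 1.68 (classes) and 4.92 (cells with 0). Leaving out cells above percentile 99 of UMIs gave 5.29 for replication-dependent genes and 5.40 for variant genes (thymus to marrow), 6.21 (variant, thymus to scale) and 1.71 (variant, classes). With each cell weighing the same, replication-dependent genes gave 6.16, 15.2, 21.6 and 3.87 and variant genes 5.77 (thymus to marrow), 1.63 (classes) and 5.74 (cells with 0). With histone, mitochondrial and ribosomal protein genes left out of the total, replication-dependent genes gave 3.65 (thymus to marrow) and 2.18 (cells with 0), and variant genes 4.06, 5.71 (thymus to scale) and 4.36 (cells with 0). Without the highest cell of each group, thymus to marrow was 4.69 (replication-dependent) and 4.73 (variant). Thinning to 1000 UMIs gave 1.99 (variant, classes) and 5.43 (variant, cells with 0). Classes from mki67 alone gave 25.9, and classes from top2a alone 20.4 (replication-dependent), 1.72 (variant) and 3.55 (replication-dependent, cells with 0). In cells of 2000 to 4000 UMIs the ratios were 50.6 and 2.58 between classes, and 1.91 and 4.65 in cells with 0. The count of 31 histone genes at least 2-fold higher in the upper class became 16 after thinning, 14 in cells of 2000 to 4000 UMIs and 19 with a minimum of 200 UMIs per gene, since fewer genes reached the minimum. The following sets were chosen after seeing the data. Without HIST2H3C, replication-dependent genes gave 11.8 (thymus to scale), 23.1 (classes) and 1.48 (cells with 0). Without hist2h2l they gave 4.54 (thymus to marrow), 79.0 (thymus to scale), 30.7 (classes) and 10.7 (cells with 0), and with 4 further histone features 4.42 (thymus to marrow). Without h2afx, variant genes gave 3.84, 4.89, 2.05 and 3.66. The cause of these moves was not tested. No paired analysis was possible because each tissue has 1 library and the result comes from no test. Depth limits the scale, where all replication-dependent genes together had 103 UMIs.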
